A study of Homo sapiens with 3 samples.

Results

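The 3′ ends of the mitochondrial ribosomal RNAs were taken as all positions with counts on the plus strand of chrM from 601 to 3300, the stretch that holds the 12S rRNA, the tRNA for valine (tRNA Val) and the 16S rRNA. These were 1639 of the 1730926 positions with a count in any of the 3 libraries, and 1558 of them had counts in all 3. HEK293T, a line derived from human embryonic kidney, was the source of every library. The 4sU 30 min and 4sU 60 min libraries held RNA captured after 30 or 60 min of growth with 4-thiouridine (4sU), a nucleoside analogue that cells build into new RNA. The input library held RNA from before the capture, and its labels name the 30 min labelling in the title and no treatment in the treatment field. Each was read with 2P-seq, which counts the last base before a poly(A) tail. The captured RNA went without the first poly(A) selection, and nothing is said of this step for the input, so labelling and this step cannot be told apart in any comparison with the input. Counts carry no gene names, so markers of the cell line were not checked.

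The heavy strand of mitochondrial DNA is transcribed into long precursors in which tRNAs separate most of the other genes. RNase P and the tRNA 3′ processing enzyme ELAC2 cut the tRNAs out, and this frees the ends of the rRNAs and mRNAs. The 12S rRNA is the core of the small subunit of the mitochondrial ribosome and the 16S rRNA that of the large subunit, which in human cells also holds tRNA Val. In gene order 12S is followed by tRNA Val, 16S, a leucine tRNA and ND1. The rRNAs are made in excess of the mRNAs, and their 3′ ends carry tails that are short beside the poly(A) tails of the mRNAs.

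The rRNA region held 1032239 counts in 30 min 4sU RNA, 661358 in 60 min 4sU RNA and 301985 in input. These were 7.29%, 7.41% and 0.853% of all counts of each library, and 27.2%, 28.1% and 20.6% of the counts on the chrM plus strand. Each group had 1 library, so there was no test across replicates, and the 95% intervals given in brackets cover counting error only. Levels are CPM, counts scaled to 1000000 nuclear counts of the library, unless another scale is named. On this scale the region had 106945 CPM in 30 min 4sU RNA, 107503 in 60 min 4sU RNA and 9216 in input, or 11.6-fold (11.6 to 11.7) and 11.7-fold (11.6 to 11.7) the input. In such bulk RNA, more RNA per cell and more cells that carry it cannot be told apart.

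A single peak stood out, at the end of 16S. Its highest position was chrM:3233, and the window of 10 nt on either side of it held 820341 counts in 30 min 4sU RNA, 524691 in 60 min 4sU RNA and 87276 in input. The peak took 79.5% of the region's counts in 30 min 4sU RNA (79.4 to 79.5), 79.3% in 60 min 4sU RNA (79.2 to 79.4) and 28.9% in input (28.7 to 29.1). In the captured RNA nearly 4 counts in 5 thus lay at this end, and in the input fewer than 1 in 3. The levels were 84992 CPM in 30 min 4sU RNA, 85288 CPM in 60 min 4sU RNA and 2663 CPM in input, which is 31.9-fold (31.7 to 32.1) and 32.0-fold (31.8 to 32.3) the input.

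No peak was found at the end of 12S. None of the positions within 10 nt of chrM:1603, where that end was looked for, had a count in any library, and the stretch from 1580 to 1655 was empty in all 3. The ratio of the 16S to the 12S end was therefore not obtained. The region had 15 empty stretches of at least 20 nt, 872 nt in all, the longest from 1060 to 1285. Moves of the minus strand by up to 80 nt were tried over all of chrM. The presence of counts on the strands was most alike at 39 nt (correlation of presence 0.525, against 0.160 with no move). With this move 99.8% of the empty nucleotides of the region were also empty on the minus strand, against 83.8% of its other nucleotides. The move was picked on data that include these positions, so the match is a description and not a separate test. The minus strand of the region had counts at only 314 positions, so most of it was empty with or without this match. With no counts near 1603 in any library, the end of 12S was not measured here. What was done with reads of more than 1 mapping place is unknown here, and its part in these stretches was not tested.

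**Figure D1:**
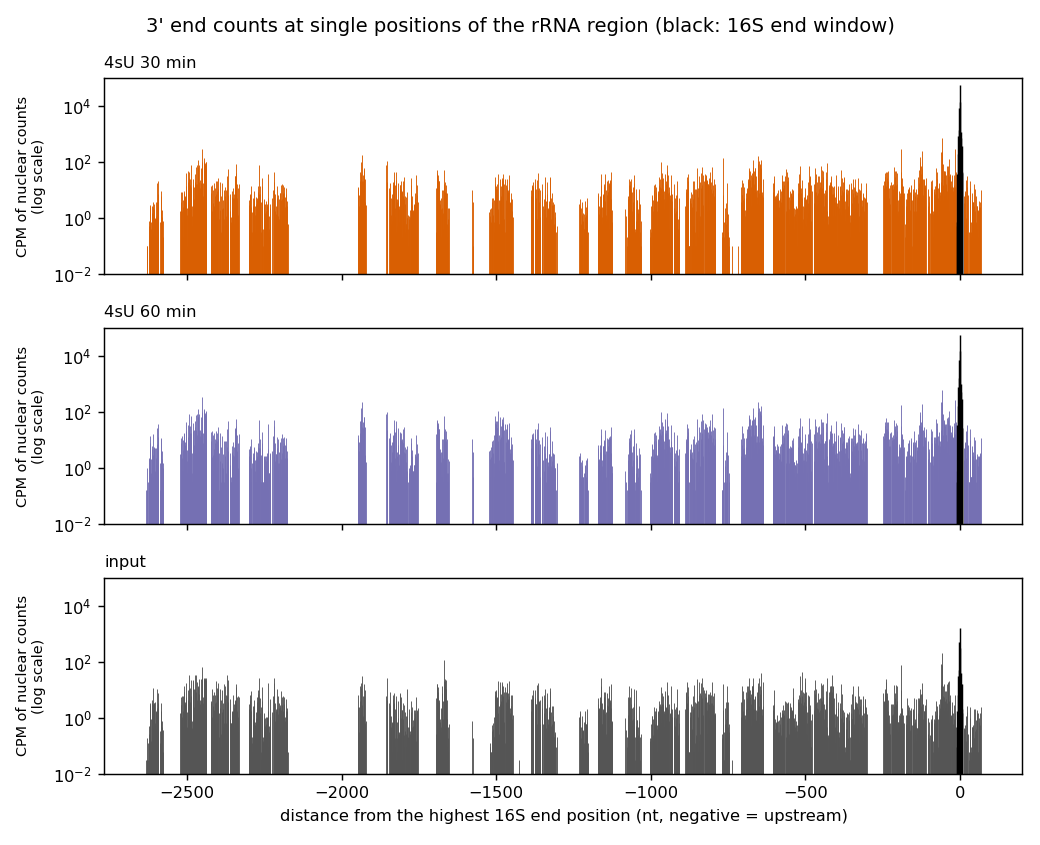
CPM of nuclear counts at each position of the rRNA region, on a log scale, against the distance from the highest 16S end position (nt); panels are 4sU 30 min, 4sU 60 min and input, and the 16S end window is black. The highest 16S end position stands above all internal positions in each library. The empty stretches were defined as those without a count in any library. No position within 10 nt of chrM:1603 had a count, so the 12S end was not measured.

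The 16S end was not a single nucleotide. In 4sU 30 min, chrM:3233 held 67.0% of the window's counts, chrM:3232 held 16.2% and chrM:3230 held 10.2%. In 4sU 60 min the same positions held 67.3%, 18.3% and 8.62%. In input they held 61.1%, 11.6% and 19.7%. The shorter end at 3230 thus took a larger share of the input than of the captured RNA, and the end at 3232 a smaller one. Per count at 3233, the position 3230 had 0.153 counts in 30 min 4sU RNA (0.152 to 0.154), 0.128 in 60 min 4sU RNA (0.127 to 0.129) and 0.322 in input (0.317 to 0.328). These ratios lie within a library and do not depend on any scaling between libraries. Because genomic A residues next to a tail cannot be told from the tail itself, and no sequence of the build was used here, single-nucleotide differences of this kind describe where the counted ends fell.

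Enrichment over input differed from one nucleotide of the peak to the next. The position 3230 was 16.6-fold (16.3 to 16.9) the input at 30 min and 14.0-fold (13.8 to 14.2) at 60 min. The position 3232 was 44.6-fold (43.7 to 45.6) and 50.4-fold (49.4 to 51.5), and 3233 was 35.0-fold (34.7 to 35.3) and 35.2-fold (34.9 to 35.5). Past the highest position, 3236 had 11519 counts in 30 min 4sU RNA, 6297 in 60 min 4sU RNA and 543 in input, 72.0-fold (66.1 to 78.6) and 61.8-fold (56.6 to 67.6). Its neighbour 3237 had 7112, 3286 and 1356 counts, only 17.8-fold (16.8 to 18.9) and 12.9-fold (12.1 to 13.8). Ends past 3233 made up 3.04% of the window in 30 min 4sU RNA, 2.46% in 60 min 4sU RNA and 3.15% in input, so they were no larger a part of the captured RNA as a group. The mean distance of the ends from 3233 was -0.483 nt in 30 min 4sU RNA, -0.469 nt in 60 min 4sU RNA and -0.741 nt in input, with standard deviations of positions of 1.34, 1.24 and 1.60 nt.

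**Figure D2:**
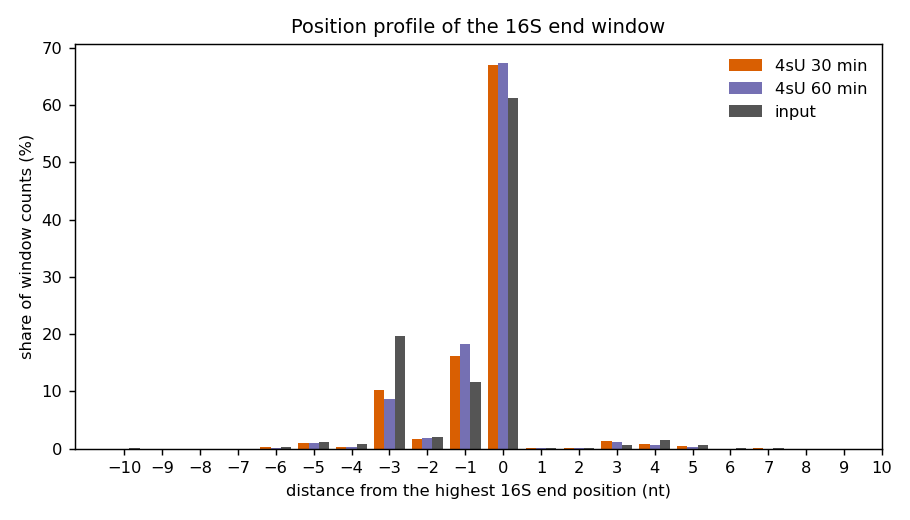
Share of the counts of the 16S end window (%) at each distance from its highest position (nt), with bars for 4sU 30 min, 4sU 60 min and input. The bar 3 nt before the highest position reaches 19.7% in input and 10.2% and 8.62% in the 4sU libraries, and the bar 1 nt before it is higher in the 4sU libraries.

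Internal positions, all members outside the 16S end window, numbered 1621, of which 1540 had counts in every library. They held 211898 counts in 30 min 4sU RNA, 136667 in 60 min 4sU RNA and 214709 in input. Their share of the region was 20.5% in 30 min 4sU RNA (20.5 to 20.6), 20.7% in 60 min 4sU RNA (20.6 to 20.8) and 71.1% in input (70.9 to 71.3). For each internal count there were 3.87 peak counts in 30 min 4sU RNA (3.85 to 3.89), 3.84 in 60 min 4sU RNA (3.82 to 3.86) and 0.406 in input (0.403 to 0.410). Most counts of the region in input thus lay at internal positions, and most of those in captured RNA at the 16S end. An oligo(dT) primer can also anneal to A-rich stretches inside an RNA, so an internal count need not be an RNA end; this was not tested, since no sequence of the build was used.

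On the CPM scale, internal counts were higher in captured RNA, by far less than the peak. They reached 21954 CPM in 30 min 4sU RNA, 22215 CPM in 60 min 4sU RNA and 6552 CPM in input, or 3.35-fold (3.33 to 3.37) and 3.39-fold (3.37 to 3.41) the input. The direction turned when levels were set against the other chrM plus-strand counts, which were themselves 8.06- and 7.74-fold the input on the CPM scale. Internal rRNA counts were then 0.416 times (0.413 to 0.418) the input at 30 min and 0.438 times (0.435 to 0.441) at 60 min, while the 16S peak stayed 3.96-fold (3.93 to 3.99) and 4.14-fold (4.11 to 4.17) the input.

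**Figure D3:**
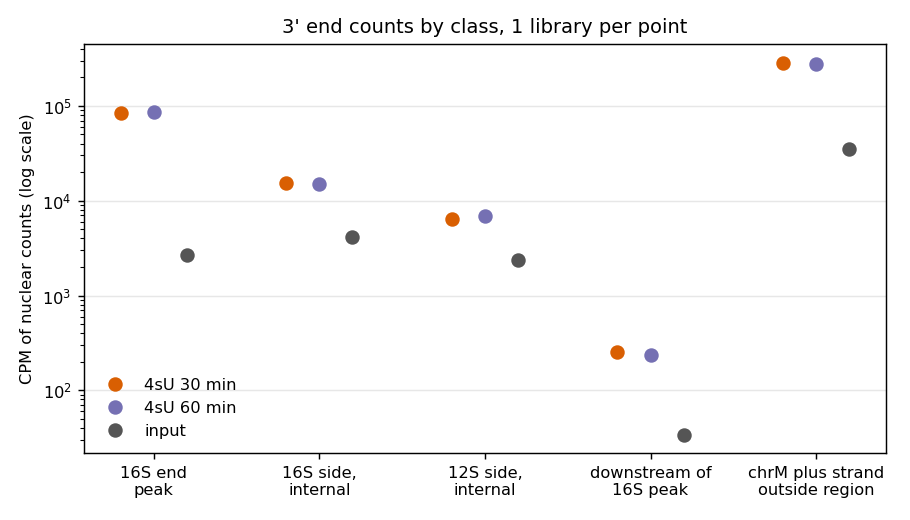
Levels of the 16S end peak, of internal positions on the 16S and 12S sides, of positions downstream of the peak and of the rest of the chrM plus strand, in CPM of nuclear counts on a log scale; each point is 1 library (4sU 30 min, 4sU 60 min, input). The distance between the 4sU libraries and the input is widest for the 16S peak (31.9- and 32.0-fold) and narrowest for the 12S side (2.68- and 2.86-fold).

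On the 12S side, from 601 to 1603, 500 positions had counts. They held 61989 counts in 30 min 4sU RNA, 42105 in 60 min 4sU RNA and 78388 in input, which is 2.68-fold (2.66 to 2.71) and 2.86-fold (2.83 to 2.90) the input. This side is set by coordinates alone. The start of 12S was not determined here, so its first positions need not lie in 12S. On the 16S side, from the next base up to the window, 1070 positions held 147445, 93103 and 135209 counts, 3.70-fold (3.67 to 3.73) and 3.67-fold (3.64 to 3.70) the input. The intervals of the sides do not overlap at either time, so counting error alone does not cover the smaller ratio of the 12S side. These intervals leave out the spread between positions, in which the sides overlapped. At 30 min, positions with at least 100 counts in a compared library had quartiles of 1.36 and 3.97 on the 12S side. Those of the 16S side were 2.06 and 6.89. Per 100 nt, the 12S side had 640 CPM in 30 min 4sU RNA, 682 in 60 min 4sU RNA and 239 in input, and the 16S side had 944, 935 and 255. These lengths include the empty stretches.

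Between the rRNAs, just past 1603 where tRNA Val lies, most positions had no count in any library. The stretches from 1580 to 1655 and from 1660 to 1710 were empty, so ends in them were not measured. The scarcity of counts here therefore does not show that ends were few. Only 4 positions, 1656 to 1659, lay between these stretches and had counts. Position 1656 had 95 counts in 30 min 4sU RNA, 67 in 60 min 4sU RNA and 25 in input, and 1659 had 38, 23 and 6. Beyond the 16S window, in the 57 nt up to 3300 on the side of the leucine tRNA, 51 positions held 2464 counts in 30 min 4sU RNA, 1459 in 60 min 4sU RNA and 1112 in input. They were 7.52-fold (7.01 to 8.08) and 6.99-fold (6.46 to 7.56) the input, between the internal positions and the peak. The bin of 100 nt just before the region, from 501 to 600, held 453, 229 and 239 counts, against 1089, 1420 and 2949 in the first bin inside it. Just past the region, from 3301 to 3400, there were 7343, 6208 and 6231 counts.

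Internal counts were spread over many positions in every library, and about equally so. The 10 highest internal positions of each library held 13.0% of its internal counts in 30 min 4sU RNA, 12.2% in 60 min 4sU RNA and 11.8% in input. Thinned to 136667 internal counts, the libraries would show 1575, 1569 and 1571 positions. The effective number of positions, the inverse of the summed squared shares, was 266, 285 and 288. Over the 917 internal positions with at least 20 counts in each library, the log2 counts of 4sU 60 min and 4sU 30 min had a Pearson correlation of 0.930. It was 0.668 between 4sU 30 min and input and 0.705 between 4sU 60 min and input. These are descriptions across positions of the same molecules, and the captured libraries also share their preparation.

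Position by position, most internal positions were higher in captured RNA on the CPM scale. A position was called when its CPM ratio was at least 2-fold and its interval excluded 1, among positions with at least 20 counts in a compared library. At 30 min 907 of 1256 internal positions were called higher than input (72.2%), against a background of 30.3% of all positions in the tables, and 22 were called lower (1.75%), against 19.2%. At 60 min 854 of 1195 were called higher (71.5%), against a background of 20.3%, and 7 lower (0.586%), against 19.6%. The rest of the chrM plus strand had more: 94.1% of its positions were called higher at 30 min and 94.4% at 60 min, with 0.475% and 0.0256% called lower. All 17 tested positions of the 16S window were called higher at both times on the CPM scale. Set against the other chrM plus-strand counts, 15 of them (88.2%) were called higher at 30 min and 12 (70.6%) at 60 min. On that scale the background over all positions was 3.06% and 3.30%.

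Internal positions ranged widely around these counts. Among the 676 with at least 100 counts in 30 min 4sU RNA or input, the ratio had a median of 3.32, quartiles of 1.82 and 5.94, and extremes of 0.224 and 91.2; 615 lay above 1 and 61 below. On the 12S side the median was 2.28 over 208 positions, and on the 16S side 3.85 over 460. Among 589 positions at 60 min the median was 2.90, with 531 above 1. Set against the other chrM plus-strand counts, 44 of the 1256 internal positions were called higher at 30 min (3.50%), against 13.7% of the chrM plus-strand positions outside the region and 3.06% of all positions. On that scale 731 were called lower (58.2%), against 21.5% outside the region and 82.6% of all positions. At 60 min 44 of 1195 were higher (3.68%), against 17.8% and 3.30%, and 715 lower (59.8%), against 19.1% and 88.9%.

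The internal position with most counts was chrM:3175, with 7011 counts in 30 min 4sU RNA, 3943 in 60 min 4sU RNA and 6631 in input. It was 3.59-fold (3.47 to 3.71) and 3.17-fold (3.04 to 3.30) the input. Its neighbours 3174 and 3173 were also among the 10 highest, and the 3 together held 5.54% of internal counts in 30 min 4sU RNA, 4.95% in 60 min 4sU RNA and 5.54% in input. This cluster lies inside 16S, 58 to 60 nt before its end, and was taken as a group after its values were seen. On the 12S side chrM:782 led, with 2967, 2118 and 2084 counts, 4.83-fold (4.57 to 5.11) and 5.41-fold (5.09 to 5.75) the input. Further positions among the 10 highest were 3111, at 14.1-fold (12.9 to 15.5) and 11.3-fold (10.2 to 12.5), 2580, at 9.83-fold (8.93 to 10.8) and 12.9-fold (11.7 to 14.3), and 1300, at 5.82-fold (5.38 to 6.29) and 7.61-fold (7.02 to 8.26). The position 3043 was 3.77-fold (3.58 to 3.98) and 2.23-fold (2.08 to 2.40).

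The highest ratios lay close to the 16S end. Position 3220, 13 nt before 3233, had 430 counts in 30 min 4sU RNA, 277 in 60 min 4sU RNA and 16 in input, 91.2-fold (55.5 to 161) and 92.2-fold (55.8 to 164). Position 3217 had 2838, 1704 and 222 counts, 43.4-fold (37.8 to 49.98) and 40.9-fold (35.5 to 47.2). The next, 3140, had 204, 148 and 24 counts, 28.9-fold (18.9 to 46.1) and 32.8-fold (21.2 to 52.9). Of these, 3220 and 3140 reached the minimum only in captured RNA, where they were high, and 3217 reached it in input too. Where they lie thus describes this list and is not a separate result. The 22 positions from 3201 to 3222, a stretch chosen after its values were seen, had 5442, 3444 and 982 counts. They were 18.8-fold (17.6 to 20.2) and 18.7-fold (17.4 to 20.1) the input, nearer to the peak than to the other internal positions. Without this stretch and the cluster at 3173 to 3175, internal counts were 3.28-fold (3.26 to 3.30) and 3.34-fold (3.31 to 3.36).

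A few internal positions were lower in captured RNA than in input, and the most abundant of them lay at the last part of the 12S side with counts. Position 1565 had 504 counts in 30 min 4sU RNA, 436 in 60 min 4sU RNA and 3729 in input, 2.18-fold (1.99 to 2.40) and 1.61-fold (1.45 to 1.78) below the input. Its neighbour 1566 had 57, 46 and 673 counts, 3.48-fold (2.65 to 4.64) and 2.75-fold (2.04 to 3.79) lower. The whole of 1555 to 1579, the last 25 nt before the empty stretch at the 12S end, held 1832, 1431 and 9161 counts. It was 0.679 times (0.645 to 0.714) and 0.832 times (0.786 to 0.880) the input, where internal positions as a whole were 3.35 and 3.39 times. This stretch too was chosen after its values were seen. The other lowest ratios were taken among positions with at least 100 counts in a compared library, which these positions reached in input only. At 30 min they were at 2727 on the 16S side and at 628. These had 8 and 10 counts in 30 min 4sU RNA against 121 and 118 in input. At 60 min they were at 2724, with 22 counts against 285, and at 936, with 10 against 120.

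**Figure D4:**
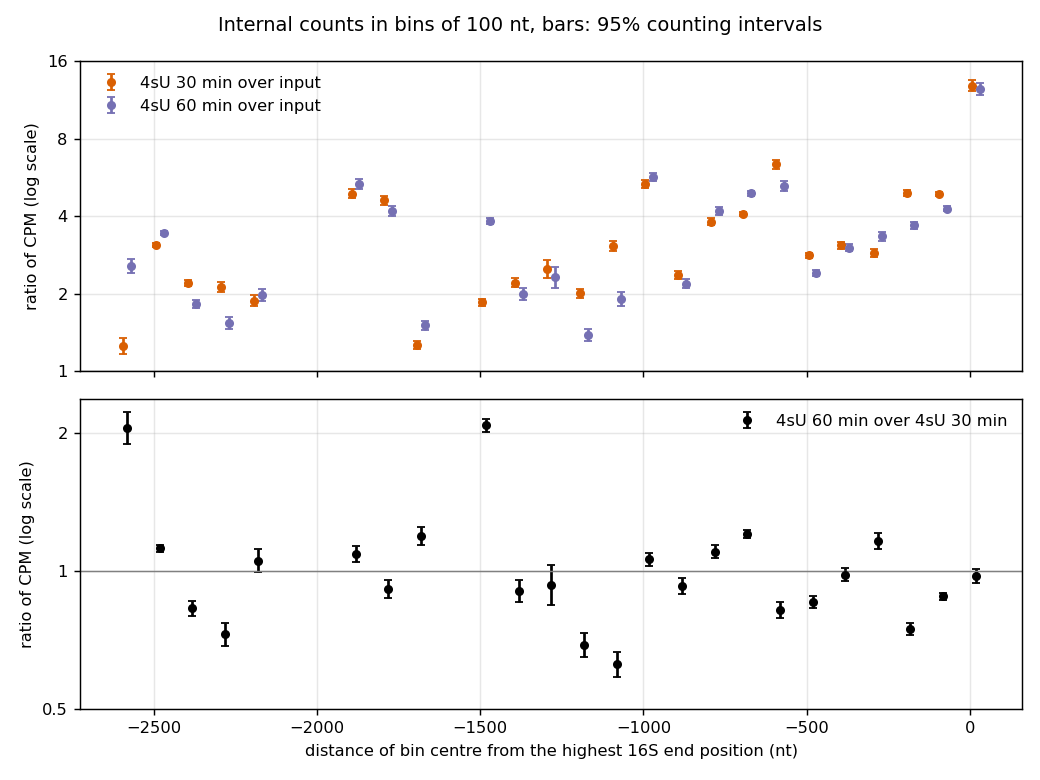
Ratios of CPM in bins of 100 nt of the rRNA region without the 16S end window, on log scales, against the distance of the bin centre from the highest 16S end position (nt). Bars are 95% counting intervals, bins with fewer than 20 positions are left out, the upper panel sets each 4sU library against input and the lower panel 4sU 60 min against 4sU 30 min. The 24 bins lie above 1 in the upper panel at both times, and 2 bins stand near 2-fold in the lower panel.

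Along the region, in bins of 100 nt, 24 of 27 bins had at least 20 positions. Their ratio to input ran from 1.25 to 12.8 at 30 min (median 2.96) and from 1.38 to 12.5 at 60 min (median 3.17), with the interval above 1 in all 24 at both times. The lowest at 30 min were the first bin, 601 to 700, at 1.25-fold (1.17 to 1.34) and the bin 1501 to 1600 at 1.26-fold (1.22 to 1.31). Within 16S the bins did not follow a steady course towards the 3′ end: 2201 to 2300 was 5.34-fold (5.16 to 5.53), 2601 to 2700 was 6.37-fold (6.12 to 6.63), and 2901 to 3000 was 2.88-fold (2.77 to 2.99) the input at 30 min.

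On the CPM scale the 16S end hardly differed between the labelling times. This scale is relative to the nuclear counts of each library, so a change shared with them would not show. The peak at 60 min was 1.003 times (1.00002 to 1.00697) the level at 30 min, and internal counts were 1.01 times (1.01 to 1.02). With median-of-ratios scaling the peak was 1.13 times (1.13 to 1.14) and internal counts were 1.14 times (1.13 to 1.15). Within the peak, 3230 was lower at 60 min, at 0.844 times (0.834 to 0.854), and 3232 was higher, at 1.13 times (1.12 to 1.14). The position 3237, past the main end, was 0.725 times (0.695 to 0.756) its level at 30 min. Across the 548 internal positions with at least 100 counts in either library, the median ratio of 60 to 30 min was 0.980, with quartiles of 0.821 and 1.16.

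Against this level background, the start of the region and the start of the well-counted part of the 16S side were higher at 60 min. The bin 601 to 700 held 1420 counts at 60 min and 1089 at 30 min, 2.05-fold (1.89 to 2.22) on the CPM scale. All of these lay before 656, since 656 to 710 was empty. The bin 1701 to 1800 held 7681 at 60 min and 5812 at 30 min, 2.07-fold (2.00 to 2.15). Over the 24 bins with at least 20 positions the median was 0.951, and no other reached 2-fold. The lowest was 2101 to 2200, at 0.625-fold (0.588 to 0.665). Of 1162 internal positions, 46 were called higher at 60 min (3.96%), against a background of 5.97% of all positions and 4.20% on the rest of the chrM plus strand, and 43 lower (3.70%), against 18.1% and 2.95%. Set against the other chrM plus-strand counts, 52 were higher (4.48%), against 6.59% and 5.19%, and 35 lower (3.01%), against 16.01% and 2.38%. On the CPM scale, 40 of the 46 lay in the bins 601 to 700, 701 to 800 and 1701 to 1800, which held 152 of the tested positions and none of the 43 called lower. These bins were picked after their values were seen.

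Ratios of 60 to 30 min were ranked among internal positions with at least 100 counts in either library. The 3 highest were all in the bin 1701 to 1800, the first bin of the 16S side with more than 4 positions. Position 1737 had 173 counts at 60 min and 68 at 30 min, 3.99-fold (2.999 to 5.365). Position 1731 had 237 and 106 counts, 3.51-fold (2.78 to 4.45), and 1732 had 305 and 138, 3.47-fold (2.83 to 4.27). The lowest were at 1475 on the 12S side, with 90 counts at 60 min and 335 at 30 min (0.422-fold, 0.330 to 0.533), at 1459, with 72 and 262 (0.431-fold, 0.327 to 0.562), and at 2196 on the 16S side, with 32 and 110 (0.456-fold, 0.298 to 0.682).

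Set beside the other abundant sites of the same strand, the 16S end was the most enriched. Less abundant ends, and ends without counts, were not compared singly. Of 7 other sites with at least 1% of chrM plus-strand counts at their highest position in a library, the ratio to input ran from 3.65 to 22.5 at 30 min (median 9.46) and from 2.59 to 24.3 at 60 min (median 6.65), against 31.9 and 32.0 for the 16S end. The nearest was the site at chrM:5512, at 22.5-fold (22.4 to 22.7) and 24.3-fold (24.1 to 24.5). The internal rRNA positions were below all 7 sites at 30 min, but at 60 min the site at chrM:9991, at 2.59-fold (2.57 to 2.61), was below them. Scattered positions of the chrM plus strand outside the region and outside those sites were 5.77-fold (5.74 to 5.80) and 6.94-fold (6.91 to 6.98) the input, against 3.35- and 3.39-fold for the internal rRNA positions. Scattered positions took 16.4% of the counts outside the region in 30 min 4sU RNA, 20.6% in 60 min 4sU RNA and 22.9% in input, a far smaller gap than the 20.5%, 20.7% and 71.1% at internal positions of the rRNA region. With 1 library per group, none of these differences has a test across replicates.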

How the data were processed

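The authors deposited raw counts of reads at single positions with strand, 1 table per library, with no header and no normalization. The submitters' processing notes name cutadapt and Bowtie; the sources used here give no version, role or build. Counts on chrM reached position 16571, the length of the mitochondrial sequence in hg19, whose numbering is used (1-based); strands were read as RNA strands, which no source used here states. No sequence of that build was used, so no bases are shown. The 4sU 30 min library summed to 14159691 counts, the 4sU 60 min library to 8926568 and the input to 35410931, of which 9652023, 6151986 and 32768468 were nuclear; chrM took 31.8%, 31.1% and 7.46%.

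Ratios of CPM of nuclear counts carry exact Poisson 95% intervals (Clopper-Pearson on the share), and shares Wilson 95% intervals, computed with scipy 1.17.1. For calls, 3 counts stood in for a 0. Without molecular identifiers, PCR reads do not count independent molecules. Calls were tested on simulated counts with Poisson error only, which leaves out PCR reads and any spread between replicates. Named positions were the 16S end, the 10 internal positions with most counts and, per comparison, the 3 highest and 3 lowest ratios among internal positions with at least 100 counts. Members and lists were chosen with earlier results of these data known. The planned ratio of the 16S to the 12S end had no value. Alternatives covered the denominator, the peak window, the count minimum and the fold.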

Additional observations from a re-analysis of the deposited data

Results flagged for a closer look

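The minus strand of chrM from 601 to 3300, which no comparison above uses as a result, had a higher level in the captured RNA than in the input on the CPM scale. It held 7498 counts in 30 min 4sU RNA, 10084 in 60 min 4sU RNA and 7542 in input, at 314 positions. This was 3.38-fold (3.27 to 3.49) and 7.12-fold (6.91 to 7.34) the input. Set against the other chrM plus-strand counts it was 0.419 and 0.920 times the input. The highest position was 3250, with 3482 counts in 30 min 4sU RNA, 4717 in 60 min 4sU RNA and 3575 in input.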

How the results depend on the processing

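No value was obtained for the ratio of the 16S to the 12S end, nor for its alternatives, because no position near 1603 had counts. No paired analysis was possible because each group has 1 library, so no replicate could be left out either. The 16S peak stayed above the input under every alternative run. At 30 and 60 min it was 23.5- and 23.8-fold with all counts as denominator, 5.51- and 5.73-fold with chrM counts, 3.96- and 4.14-fold with chrM plus-strand counts outside the region, 17.0- and 19.3-fold with median-of-ratios scaling, 30.4- and 30.5-fold with 50 nt on either side, and 35.0- and 35.2-fold at its highest position alone. For 60 over 30 min it was 1.01, 1.04, 1.04 and 1.13 under the same 4 denominators. Internal counts were 2.47- and 2.53-fold with all counts, 0.579 and 0.606 with chrM counts, 0.416 and 0.438 with chrM plus-strand counts, and 1.79 and 2.04 with median-of-ratios scaling; with windows of 5, 24 and 50 nt the 30 min ratios were 3.40, 3.28 and 3.23, and those at 60 min 3.42, 3.32 and 3.28. For 60 over 30 min they were 1.02, 1.05, 1.05 and 1.14 under the 4 denominators. The turn below 1 follows from dividing by chrM counts that were themselves higher, and which scale is right was not tested. It also held for the 12S side (0.464 and 0.512 with chrM counts, 0.333 and 0.370 with plus-strand counts) and the 16S side (0.639 and 0.656, 0.459 and 0.474). Positions downstream of the peak were 0.934 (0.869 to 1.003) and 0.903 (0.835 to 0.977) with plus-strand counts, so at 30 min the interval included 1. The 60 over 30 min ratio of the 16S side, 0.991 on the nuclear scale, was 1.002 with all counts, 1.03 with chrM counts, 1.03 with plus-strand counts and 1.12 with median-of-ratios scaling; downstream of the peak it was 1.05 with the last of these, against 0.929. Internal shares of the region with windows of 5, 24 and 50 nt were 20.9%, 20.0% and 19.2% in 4sU 30 min and 20.9%, 20.2% and 19.5% in 4sU 60 min, and with 24 and 50 nt 70.8% and 69.2% in input. Without the 10 highest internal positions they were 18.4%, 18.7% and 68.8%. The mean position relative to 3233, with 5, 24 and 50 nt, was -0.471, -0.542 and -0.814 nt in 4sU 30 min, -0.458, -0.531 and -0.776 nt in 4sU 60 min and -0.728, -0.782 and -2.57 nt in input. Internal positions tested against input at 30 and 60 min numbered 1256 and 1195. Of these, 529 and 457 were called higher than input at 4-fold and 44 and 44 with plus-strand counts. Those called lower were 3 and 1 at 4-fold, 41 and 37 with all counts and 731 and 715 with plus-strand counts. For 60 over 30 min, 26 were higher and 22 lower with at least 50 counts, and 5 and 2 at 4-fold. Shares over all positions are given above for 2-fold calls on the CPM and plus-strand scales only. The counts at 4-fold, with all counts and with at least 50 counts have no such background, so they describe the setting alone. Where no construction is named, the cause of a change was not tested.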
